A study of Bos taurus with 36 samples.

Results

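The liver was compared between 12 h and 48 h after lipopolysaccharide (LPS) had been infused into the udder of dairy cows, within the 4 cows that were biopsied at both hours. The 8 arrays of these cows, and 4 arrays of the other cows at 48 h that were used only as a check, make up 12 of the 36 arrays of the series. The 8 healthy animals were Holstein-Friesian and had calved for the first time 9 to 12 weeks earlier. Every cow received 200 μg of Escherichia coli LPS in 10 ml of 0.9% NaCl in the right front gland of the udder and NaCl without LPS in the left one, and each cow's own biopsy at -22 h is the only sample before LPS. The study also followed cows that received NaCl alone, but only samples of LPS-treated cows were put on arrays, so liver of such cows was not analysed here. In those controls the paper reports no effect of biopsying on clinical measures or on some selected genes. Cows 1, 3, 7 and 8 gave biopsies at 3, 6 and 12 h as well as at -22, 9 and 48 h, and cows 2, 4, 5 and 6 at the last 3 of these hours. The hour after LPS, the number of earlier biopsies and the time of day therefore move together: 12 h and 48 h are 36 h apart, which places them 12 h apart on the clock, and the hour after LPS and the hour of the day cannot be told apart.

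The acute phase response is the reaction of the liver to inflammation elsewhere in the body. Cytokines such as IL-1, IL-6 and TNF, and LPS itself, act on hepatocytes through NF-kappaB and STAT3, the synthesis of plasma proteins such as haptoglobin and serum amyloid A goes up, and that of other liver proteins goes down. In the liver the same state is known to repress bile acid synthesis, drug metabolism and lipid oxidation. Feedback inhibitors such as SOCS3 act to end the signal.

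The Affymetrix Bovine Genome Array carries 24128 probe sets, and all levels below are log2 signals on which a difference of 1 is 2-fold. The scale ran from 0.70 to 16.37 in the 12 arrays, with a lower quartile of 2.51, so a fall to about 2 or 3, or a rise from there, is a lower bound. The array medians lay between 4.22 and 4.31 at 12 h and between 4.22 and 4.29 at 48 h in the paired cows, and the 3' and 5' probe sets of the GAPDH control lay between 13.8 and 14.4 in these 8 arrays. The actin control was uneven. Its 3' probe set lay between 4.79 and 10.8 at 12 h and between 5.51 and 8.88 at 48 h, and its 5' probe set between 5.06 and 7.94 and between 4.91 and 5.82. Among the 4 arrays used as a check, that of cow 2 stood apart in the called genes and that of cow 6 in skeletal muscle genes, as given below. Of the 3928 genes called between 12 h and 48 h, 854 (21.7%) were nearer in cow 2 at 48 h to the 12 h mean of the paired cows than to their 48 h mean, against 2.67% to 4.2% in cows 4, 5 and 6 and 1.32% to 2.67% in the paired cows. The arrays of cows 2 and 6 do not enter the comparison of 12 h with 48 h. A gene was read through 1 probe set, the brightest of those that name it alone, and 9155 genes could be read among 13292 such probe sets. The biopsies are bulk tissue, in which fewer cells of a type and less RNA per cell cannot be told apart.

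Between 12 h and 48 h the level of 7520 probe sets (31.2%) changed at an adjusted p below 0.05 (limma, Benjamini-Hochberg over all probe sets, each cow against itself). Of these, 3275 rose (13.6%) and 4245 fell (17.6%). All 7520 moved in the same direction in the 4 cows, which was true of 63.6% of all probe sets. Counted as genes, 1484 of 9155 rose (16.2%), 2444 fell (26.7%) and 5227 did not pass the test. These 2 percentages are the background for the counts by function below. They include dim genes: the genes that did not pass had a median level of 4.00 at 12 h. Of 11269 probe sets with a value of at least 5 in at least 4 of the 8 arrays, 3239 rose and 4389 fell (67.7% in all). For lists of bright genes the background is therefore higher than these 2 percentages. The changes were large: 966 genes rose and 1433 fell by 2-fold or more, 168 rose and 108 fell by 8-fold or more, and 23 rose and 13 fell by 32-fold or more. The median rise of the called probe sets was 1.36 and the median fall was -1.15, while the standard error (SE) of a called gene had a median of 0.14 for rises and 0.12 for falls. The 4 values at 12 h and the 4 at 48 h did not overlap for 5317 genes (58.1%), among them 1370 of the genes that rose and 2313 of those that fell. The median change of the rising probe sets was 1.19, 1.41, 1.46 and 1.32 in cows 1, 3, 7 and 8. That of the falling ones was -1.18, -1.26, -1.04 and -1.14. These probe sets were selected by a test that favours like changes in the 4 cows, so the medians do not show that each cow contributed alike. The values in this order of cows are given for each gene below.

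The largest fall was that of TNFRSF6B, a soluble decoy receptor for Fas ligand. It stood at 10.49, 10.79, 10.59 and 10.84 at 12 h and at 1.66, 1.66, 1.67 and 1.65 at 48 h, a change of -9.02 (SE 0.08, adjusted p = 0.00044). All 4 cows had thus gone from a high level to the floor of the scale. TNFRSF12A, the receptor for the cytokine TWEAK, went from 10.91, 11.29, 11.66 and 9.39 to 3.93, 3.85, 4.32 and 3.96 (change -6.80, SE 0.40). The muscle ankyrin repeat protein ANKRD1 stood at 9.41, 12.06, 11.66 and 8.47 at 12 h and at 2.41, 2.39, 6.01 and 2.38 at 48 h (change -7.10, SE 0.77). Cow 7 kept a level above the floor while the other 3 cows did not. In cow 6, of the arrays used as a check, ANKRD1 stood at 7.59 at 48 h. The lysosomal protease cathepsin L (CTSL) went from 9.64, 8.31, 12.05 and 10.91 to 3.66, 3.13, 3.24 and 3.03 (change -6.96, SE 0.71). HOPX, a homeodomain-only protein, stood at 13.13, 12.26, 11.83 and 13.20 at 12 h and at 6.52, 5.67, 6.00 and 6.25 at 48 h (change -6.49, SE 0.20). In cow 2 it was still at 9.60 at 48 h.

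The remaining largest falls had the same form. SLCO4A1, a transporter of organic anions, fell by 6.27 from levels of 8.33 to 9.54, RND1 by 5.65 from 8.90 to 11.3, and ZDHHC19, a palmitoyltransferase, by 5.42 from 6.63 to 7.95. SDS, which degrades serine to pyruvate, went from 11.97, 13.30, 12.37 and 12.98 to 6.66, 6.86, 7.28 and 7.03 (change -5.70, SE 0.26). In contrast to these, the spread between the cows was wide at 12 h for DOCK9, an exchange factor for CDC42, for the long pentraxin PTX3 and for the AP-1 subunit FOS. PTX3 stood at 5.95, 9.58, 10.36 and 6.52 at 12 h and at 2.25, 2.32, 2.25 and 2.20 at 48 h (change -5.85, SE 0.92). The change of DOCK9 was -5.91 (SE 1.01) and that of FOS -5.34 (SE 1.16). The call was lost for PTX3 without cow 3 (-5.38), and for DOCK9 (-6.03 to -5.25) and FOS (-5.79 to -4.39) without cow 1, 3 or 7, although all 4 cows showed the fall.

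The largest rise was that of AKR1C3, a reductase of steroids and bile acid intermediates. It stood at 6.14, 5.92, 6.11 and 4.82 at 12 h and at 13.73, 13.93, 14.14 and 14.04 at 48 h (change 8.21, SE 0.30, adjusted p = 0.00070). UGT2B10, which conjugates lipophilic compounds to glucuronic acid, went from 3.32, 3.33, 3.58 and 3.35 to 10.96, 11.72, 11.11 and 11.79 (change 8.00, SE 0.21). Both genes belong to families whose members have alike sequences, so signal from a related transcript cannot be told apart. PDZK1, the scaffold protein of the HDL receptor, went from 4.03, 3.73, 6.38 and 4.33 to 12.13, 11.63, 11.71 and 11.80 (change 7.20, SE 0.55). THRSP (Spot 14), an activator of fatty acid synthesis, stood at 2.81, 2.25, 2.23 and 2.23 at 12 h and at 9.89, 8.54, 8.84 and 9.62 at 48 h (change 6.84, SE 0.21). The values at both hours were far apart in each of these genes, although the cows differed at 48 h for THRSP and at 12 h for PDZK1, where cow 7 stood above the others. THRSP lay at 5.45 in cow 2 at 48 h.

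Receptors of hormones that act on the liver were among the largest rises. The prolactin receptor PRLR stood at 7.56, 7.33, 7.70 and 6.37 at 12 h and at 13.34, 12.75, 13.11 and 13.23 at 48 h (change 5.87, SE 0.29). KLB (beta-klotho), the co-receptor of the hormones FGF19 and FGF21, went from 6.56, 3.64, 4.18 and 6.62 to 10.78, 10.41, 11.17 and 11.13 (change 5.62, SE 0.62). CYP7A1, which sets the rate of bile acid synthesis, stood at 11.45, 7.32, 5.83 and 6.52 at 12 h and at 13.61, 13.63, 13.54 and 13.21 at 48 h (change 5.72, SE 1.04). Cow 1 already had a high level of CYP7A1 at 12 h, and the call was lost without cow 3, 7 or 8 (5.06 to 5.53). The other large rises were of GAS2, an actin-associated protein (6.98), LGI4, a secreted leucine-rich repeat protein (6.56), the lipid kinase PIK3C2G (5.72), the multiple PDZ domain scaffold MPDZ (5.72) and PRUNE2 (5.61).

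**Figure D1:**
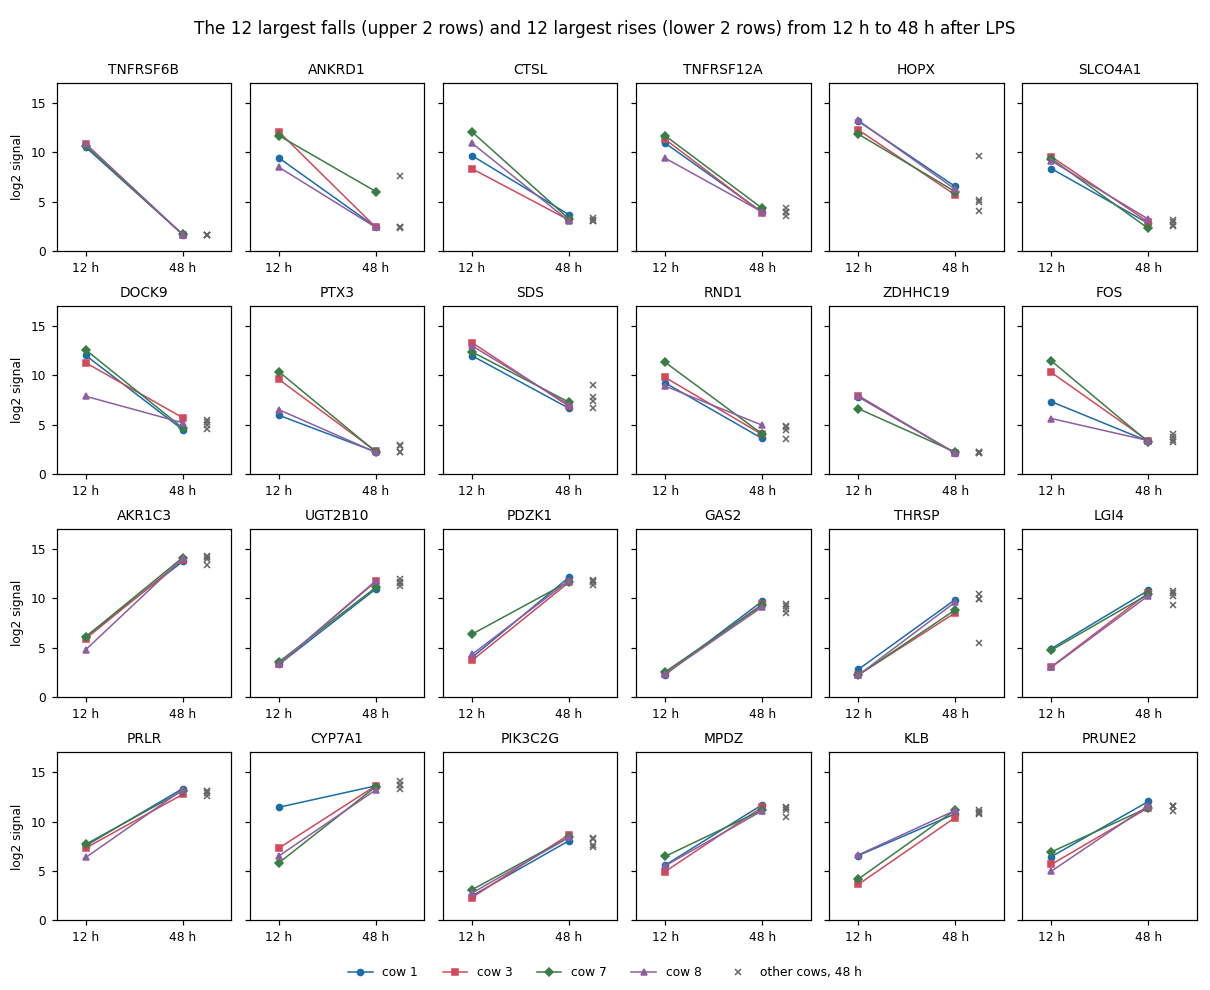
Log2 signal (y axis) at 12 h and 48 h (x axis) for the 12 genes that fell most and the 12 that rose most, with 1 line per paired cow (cows 1, 3, 7 and 8) and crosses for the 4 other cows at 48 h. TNFRSF6B fell in all 4 cows to 1.65 to 1.67, whereas CYP7A1 started at 11.45 in cow 1 and at 5.83 to 7.32 in the others.

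Genes of bile acid synthesis and transport, drug metabolism, lipid oxidation and amino acid degradation rose in number above the background of 16.2%. Most of these genes are bright, and the background of bright probe sets is higher (3239 of 11269 rose). The lists and their members were chosen with earlier results of these data known. Of 21 genes of bile acid synthesis and transport, 19 rose and 1 fell (median change 2.86, against 0.02 over all genes). AKR1C4, which reduces a bile acid intermediate and is close in sequence to AKR1C3, went from 11.31, 11.54, 12.90 and 11.97 to 14.71, 14.64, 14.65 and 14.51 (change 2.70, SE 0.31). The member that fell was SLC51A, named after its values were seen, 1 subunit of a transporter that carries bile acids out of the cell into blood. It stood at 7.37, 6.75, 4.70 and 6.98 at 12 h and at 2.63, 2.62, 2.61 and 2.36 at 48 h (change -3.89, SE 0.53, call lost without cow 1, -3.61). ABCC3, another export pump for bile acids into blood and also named after its values were seen, did not pass the test (0.63, 95% interval 0.03 to 1.23).

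Of 39 enzymes of drug metabolism 34 rose and none fell (median change 1.68). The flavin monooxygenases FMO5 and FMO1 went from 8.05, 7.92, 8.76 and 7.88 to 12.97, 13.40, 13.02 and 13.11 (change 4.97, SE 0.23) and from 9.05, 9.13, 10.01 and 9.12 to 13.61, 13.86, 13.72 and 13.66 (change 4.38, SE 0.20). The glutathione transferase GSTA4 rose by 3.46 (SE 0.04), by nearly the same amount in every cow, and GSTA2, the brightest member of the list, rose by 1.00 from levels of 14.1 to 14.5. CYP2E1, which oxidizes ethanol and small solvents, rose by 1.72 (SE 0.24). ALDH2, the mitochondrial aldehyde dehydrogenase, did not pass the test (0.07, 95% interval -0.15 to 0.29). Transferases and oxidases of this kind have near-identical paralogs, and their separate changes are uncertain.

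Of 28 genes of fatty acid oxidation and ketogenesis 21 rose and 1 fell (median change 1.28). The enoyl-CoA isomerase ECI1 went from 9.55, 9.37, 10.05 and 9.65 to 12.73, 12.80, 12.73 and 12.48 (change 3.04, SE 0.15). CPT2, which completes the entry of fatty acids into mitochondria, rose by 2.80 (SE 0.11), the peroxisomal thiolase ACAA1 by 2.54 and the hydroxybutyrate dehydrogenase BDH2 by 2.49. FABP1, the fatty acid binding protein of liver, rose by 1.01 (SE 0.19), a call that was lost without cow 1 (0.83) or cow 3 (0.94). The member that fell was PPARA, named after its values were seen, the nuclear receptor that drives these genes. It stood at 7.20, 6.25, 6.23 and 6.13 at 12 h and at 7.04, 6.12, 5.99 and 5.90 at 48 h, a change of -0.19 (SE 0.04). The values of PPARA at both hours overlapped, the call was lost without any 1 of the 4 cows (-0.21 to -0.17), and in the other 4 cows it rose by 1.03 from 9 h to 48 h.

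Genes of lipogenesis and the apolipoproteins also rose more often than the background. Of 23 genes of lipogenesis and triglyceride synthesis 10 rose and 1 fell. MTTP, which loads triglyceride onto apolipoprotein B, went from 8.43, 8.05, 7.30 and 8.75 to 12.28, 11.97, 11.43 and 12.07 (change 3.80, SE 0.15). GPAM, the first enzyme of glycerolipid synthesis, rose by 3.53 (SE 0.26) and the elongase ELOVL5 by 1.55. PLIN2, the coat protein of lipid droplets, was the member that fell, from 8.20, 10.30, 9.51 and 7.94 to 5.11, 5.48, 4.93 and 5.02 (change -3.85, SE 0.42). Of 17 apolipoproteins and related genes 10 rose and 2 fell: APOA5, LCAT, which esterifies cholesterol in plasma, APOM and APOA1 rose by 2.65, 2.12, 1.93 and 1.20, whereas the HDL receptor SCARB1 fell by 1.67 (SE 0.10) and the phospholipid transfer protein PLTP by 1.93 (SE 0.44, call lost without cow 1, 3 or 7, -2.25 to -1.94). The scaffold of that receptor, PDZK1, moved the opposite way. Of 18 genes of cholesterol synthesis and uptake 5 rose (3 without cow 1 or cow 3, 9 without cow 8, 10 after centring of the arrays) and 2 fell, with TM7SF2 at 3.03, EBP at 2.04 and NSDHL at 1.97 among the rises and the kinase PMVK at -2.23 among the falls. HMGCS1, the first committed enzyme, stood at 13.30, 13.12, 12.55 and 14.94 at 12 h and at 14.42, 14.22, 14.56 and 14.29 at 48 h, with a rise in 3 cows and not in cow 8 (change 0.90, 95% interval -0.40 to 2.20).

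Amino acid and glucose metabolism moved in both directions. Of 50 genes of the urea cycle and of amino acid degradation 32 rose and 6 fell (median change 1.08). AMT, a subunit of the glycine cleavage system, went from 2.22, 2.65, 2.23 and 2.11 to 7.48, 7.06, 7.34 and 7.72 (change 5.10, SE 0.22), and the kynurenine hydroxylase KMO rose by 4.74 (SE 0.36). SDS, described above, and GNMT, which methylates glycine and disposes of excess methionine, were among those that fell. GNMT stood at 10.09, 12.03, 10.61 and 11.50 at 12 h and at 7.15, 6.16, 6.10 and 5.58 at 48 h (change -4.81, SE 0.60). OAT, ornithine aminotransferase, and BCAT2, the first enzyme of branched-chain amino acid degradation, both named after their values were seen, fell by 4.10 and 3.14. ARG1, the last enzyme of the urea cycle, fell by 0.66 from levels of 15.0 to 15.3 (SE 0.07). Of the enzymes of serine synthesis, PSAT1 went from 9.97, 9.75, 9.99 and 8.42 to 13.54, 13.41, 13.30 and 13.28 (change 3.85, SE 0.30) and PHGDH rose by 2.24.

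Of 36 genes of gluconeogenesis, glycolysis and glycogen 15 rose and 11 fell. The rises held enzymes that liver uses, with PKLR, the pyruvate kinase of liver, at 4.23 (SE 0.45), the regulatory enzyme PFKFB1 at 3.33 (SE 0.10) and the glucose 6-phosphate transporter SLC37A4 at 3.19 (SE 0.21). PCK1, the enzyme that commits carbon to gluconeogenesis, went from 11.78, 12.14, 11.85 and 11.60 to 14.78, 14.69, 14.62 and 14.80 (change 2.88, SE 0.12), and its mitochondrial form PCK2 rose by 2.98. ALDOA and PKM, named after their values were seen, are the aldolase and the pyruvate kinase of most other tissues, and they fell by 2.89 and 2.81. G6PC1, which releases free glucose, did not pass the test in its brightest probe set (-0.35, 95% interval -1.09 to 0.39), but a dimmer one fell by 2.79 from 9.64 to 6.85 (SE 0.39). GAPDH did not pass the test (0.04, 95% interval -0.23 to 0.31). Of 25 genes of the TCA cycle and pyruvate dehydrogenase 8 rose (4 or 5 without any 1 cow) and 7 fell (3 and 4 without cows 1 and 3): the NADP-dependent dehydrogenase IDH1 rose by 2.84 (SE 0.06), whereas the TCA enzymes IDH3A and SUCLA2 fell by 2.39 and 2.02. Of the other probe sets of IDH1, 1 rose by 3.51 and 1 did not pass the test (0.15). PDK4, which inhibits pyruvate dehydrogenase, stood at 4.69, 6.47, 7.74 and 3.72 at 12 h and at 8.04, 9.24, 8.69 and 9.05 at 48 h (change 3.10, SE 0.77). Its call was lost without cow 1, 3 or 8 (2.36 to 3.21).

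**Figure D2:**
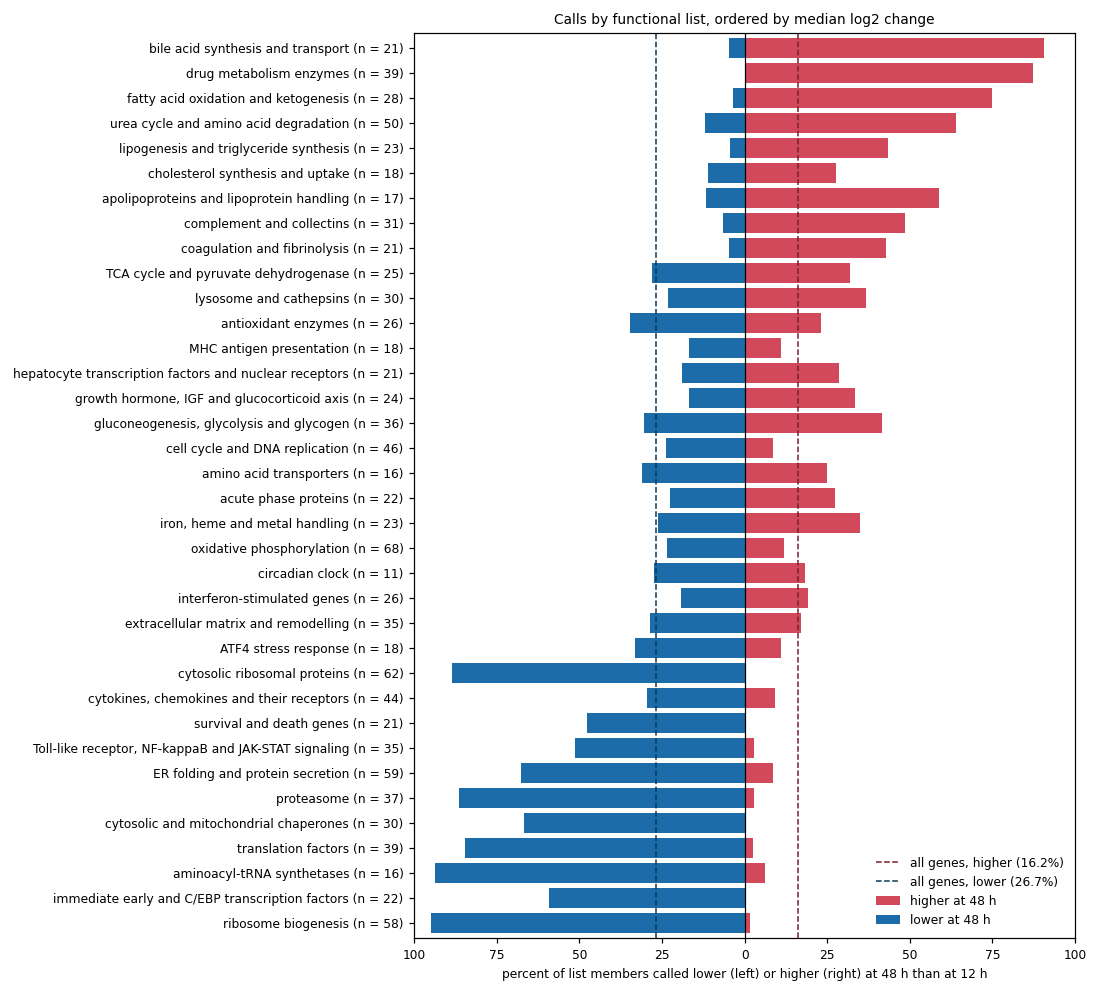
Percent of the members of each functional list that were called higher (right) or lower (left) at 48 h than at 12 h in the 4 paired cows, with the number of members measured beside each name and dashed lines at the percent of all genes (16.2% higher, 26.7% lower). Bile acid synthesis (19 of 21 higher) and drug metabolism (34 of 39 higher) lie at the top, and ribosome biogenesis (55 of 58 lower) lies at the bottom.

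Genes of protein synthesis fell in number above the background of 26.7%. Most of these genes are bright as well, and of bright probe sets 4389 of 11269 fell. Of 58 genes of ribosome biogenesis 55 fell and 1 rose (median change -2.04). EMG1, which methylates ribosomal RNA, went from 10.01, 10.26, 9.85 and 10.71 to 6.17, 6.42, 6.26 and 6.60 (change -3.85, SE 0.10). NOL6, a nucleolar RNA-associated protein, went from 6.56, 6.53, 6.46 and 6.48 to 2.79, 2.76, 2.83 and 2.81 (change -3.71, SE 0.04). Both changes were many times the spread between the cows. MRTO4, GNL3 and nucleolin (NCL) fell by 3.35, 3.33 and 2.08. HEATR1, named after its values were seen, was the gene counted as a rise (1.69, SE 0.09), but its 3 probe sets disagreed, and the dimmer ones stood at -1.62, which passed the test, and -0.65, which did not. Of 62 cytosolic ribosomal proteins 55 fell and none rose, with a smaller median change of -0.58. The lowest was RPL4, from 14.96, 15.17, 14.95 and 14.98 to 13.94, 13.51, 13.65 and 13.48 (change -1.37, SE 0.12), RPL14 fell by 1.15 and RPL27A by 0.57, and RPS29 did not pass the test (-0.01, 95% interval -0.13 to 0.12). With all arrays brought to a common median of their brighter probe sets (centring), which moved the median change up by 0.14, 38 of the 62 ribosomal proteins fell and none rose.

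Of 39 translation factors 33 fell and 1 rose (median change -1.21). The RNA helicase EIF4A1 went from 11.62, 12.42, 11.92 and 12.38 to 8.40, 8.75, 8.56 and 8.71 (change -3.48, SE 0.10), the release factors ETF1 and GSPT1 fell by 3.14 (SE 0.07) and 2.72 (SE 0.06), and EIF2S1, the subunit of eIF2 that stress kinases phosphorylate, by 2.69. EEF2K, named after its values were seen, the kinase that inhibits the elongation factor eEF2, rose by 0.97 (SE 0.06). Of 16 aminoacyl-tRNA synthetases 15 fell, among them GARS1 by 3.10, TARS1 by 2.33, YARS1 by 2.05 and MARS1 by 2.04. The 16th, WARS1, named after its values were seen, was counted as a rise (1.01, SE 0.18, call lost without cow 3, 0.99, or cow 8, 1.05), while 3 dimmer probe sets of it fell by 2.12, 2.12 and 3.02, so its direction is uncertain. Of 16 amino acid transporters 4 rose and 5 fell (2 or 3 without any 1 cow), with SLC7A9 at 4.93 (SE 0.31) and SLC38A2 and SLC3A2 at -2.95 and -2.27.

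Falls were also above the background among genes of protein folding, secretion and degradation. Of 59 genes of folding in the endoplasmic reticulum and of secretion 40 fell and 5 rose (median change -0.93, rises 2 or 3 without cow 1, 3 or 7). CRELD2, a protein of the endoplasmic reticulum stress response, went from 12.51, 12.71, 12.98 and 12.41 to 7.53, 7.61, 8.76 and 7.73 (change -4.75, SE 0.17). The chaperone HYOU1 stood at 11.62, 11.52, 11.85 and 11.42 at 12 h and at 7.53, 7.24, 8.34 and 7.58 at 48 h (change -3.93, SE 0.14), MANF fell by 2.84, the signal recognition particle receptor SRPRA by 2.65 and HSP90B1, a chaperone of secreted proteins, by 1.31. Among the paired cows, cow 7 had the highest level of CRELD2 and HYOU1 at both hours. In cow 2 at 48 h CRELD2, HYOU1, MANF and HSPA4 stood at 12.00, 10.95, 14.00 and 10.42, near their 12 h levels in the paired cows, whereas cows 4, 5 and 6 lay between 7.59 and 8.08 for CRELD2. The disulfide isomerase P4HB did not pass the test (-0.02, 95% interval -0.23 to 0.19). Of 30 cytosolic and mitochondrial chaperones 20 fell and none rose, among them CCT8 by 2.26 (SE 0.05), HSPA4 by 2.11 and HSPA9 by 1.86, while HSPA8 stood at 12.93, 13.93, 15.15 and 13.88 at 12 h and at 12.59, 13.41, 13.20 and 13.50 at 48 h and did not pass. Members of the heat shock families may share hybridization. Of 37 proteasome genes 32 fell and 1 rose (median change -1.06). The assembly chaperone PSMG2 fell by 2.24, the immunoproteasome subunits PSMB9 and PSMB10 by 2.26 (SE 0.06) and 2.22 (SE 0.19), PSMF1 by 1.84, PSMD9 by 1.80 and PSMD6 by 1.60, although a dimmer probe set of PSMD6 rose by 0.96. The rise was of the activator PSME4, named after its values were seen (0.56, SE 0.07). Of 68 genes of oxidative phosphorylation 8 rose (2 to 14 with 1 cow left out) and 16 fell (8 without cow 3), which is below the background in both directions, with NDUFA5 at -1.81 and NDUFS8 at 1.06.

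Of 35 genes of Toll-like receptor, NF-kappaB and JAK-STAT signaling 18 fell, 1 rose and 16 did not pass the test (median change -0.80). SOCS3, the feedback inhibitor of STAT3, stood at 7.51, 8.39, 8.66 and 8.13 at 12 h and at 4.79, 3.25, 5.12 and 4.22 at 48 h (change -3.82, SE 0.43). STAT3 itself went from 13.61, 13.38, 13.48 and 13.57 to 10.85, 10.96, 11.32 and 11.12 (change -2.45, SE 0.11). The receptor TLR2 fell by 3.16 (SE 0.38), the kinase IRAK1 by 2.45, its inhibitor TOLLIP by 2.01, the adaptor MYD88 by 1.91 and the NF-kappaB subunit RELA by 1.05. Both activators and inhibitors of the pathway were therefore among the genes that fell. NFKBIA, which holds NF-kappaB in the cytosol, stood at 8.77, 8.99, 10.01 and 8.05 and at 8.20, 8.10, 7.10 and 6.84 and did not pass the test. TLR6, named after its values were seen, rose by 0.64 (SE 0.13, call lost without cow 1, 0.67, or cow 3, 0.62).

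Of 44 cytokines, chemokines and receptors 13 fell and 4 rose (median change -0.76), a share of falls close to the background. The falls were 7 without cow 1 or cow 3, and 24 in the fit of all 36 arrays that the study used. The decoy receptor TNFRSF6B and the receptor TNFRSF12A, described above, were among them. The interferon receptor chain IFNAR1 went from 11.27, 10.63, 11.64 and 11.09 to 8.51, 8.49, 8.89 and 8.68 (change -2.52, SE 0.13), TNFRSF1A fell by 2.15 (SE 0.14) and IL1R1 by 1.87 (SE 0.08). The cytokines themselves were mostly dim. TNF lay between 2.31 and 2.38 in all 8 arrays, IL10 between 2.58 and 2.83, and IL6 stood at 2.54, 2.61, 6.56 and 2.63 at 12 h and at 2.63 to 2.70 at 48 h. The chemokine GRO1 fell by 1.11 (SE 0.25, call lost without cow 3, 7 or 8, -1.15 to -0.89) in its brightest probe set, and its 3 other probe sets changed by -5.36, -3.26 and -2.91 without passing the test. GRO chemokines are close in sequence and may share hybridization. Of 22 immediate early and C/EBP transcription factors 13 fell and none rose (median change -1.98), with 7 falls without cow 1, 3 or 7. MYC stood at 7.93, 8.97, 10.10 and 7.27 at 12 h and at 2.68, 4.62, 3.65 and 3.35 at 48 h (change -4.99, SE 0.48), ATF3 fell by 3.78 (SE 0.46) and JUN by 3.08 (SE 0.41, call lost without cow 1, -3.09). CEBPD and CEBPA, regulators of acute phase genes, did not pass the test (-0.79 and 0.18).

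Of 21 survival and death genes 10 fell (6 without cow 3) and none rose. GADD45B, a stress sensor, fell by 2.67 (SE 0.21), the pro-apoptotic genes BAX and BAK1 by 2.13 and 1.96, and the anti-apoptotic genes BIRC3 and MCL1 by 2.75 (SE 0.54) and 1.55 (SE 0.25). The calls of BIRC3 and MCL1 were lost without cow 1 (-2.74 and -1.53) or cow 3 (-2.78 and -1.49). In the ATF4 stress response 6 of 18 genes fell and 2 rose, with the pseudokinase TRIB1 at -3.61 (SE 0.26) and the serine synthesis enzymes PSAT1 and PHGDH at 3.85 and 2.24. Of 26 interferon-stimulated genes 5 rose (19.2%, 2 or 3 genes without cow 1, 3 or 7, 9 after centring) and 5 fell (19.2%, 3 genes without cow 3). The share of rises was near that of all genes (16.2%), and the share of falls was below it (26.7%). Only 4 of these 26 genes had a mean level under 5, and the background of bright genes is higher. Of 18 genes of MHC antigen presentation 2 rose and 3 fell. Of 35 genes of the extracellular matrix 6 rose (17.1%, 3 genes without cow 7 or cow 8) and 10 fell (28.6%, 6 genes without cow 1), near the background. Tenascin C (TNC), a matrix protein of injured tissue, went from 11.86, 11.68, 11.84 and 12.60 to 7.52, 6.90, 7.85 and 7.52 (change -4.55, SE 0.21), while COL18A1 went from 7.44, 6.87, 6.74 and 6.86 to 10.72, 10.76, 10.69 and 10.66 (change 3.73, SE 0.14). The secreted protein osteopontin (SPP1) stood at 7.43, 9.52, 9.61 and 8.94 at 12 h and at 6.45, 5.03, 5.16 and 4.85 at 48 h (change -3.50, SE 0.72), with the smallest fall in cow 1, and its call was lost without cow 3, 7 or 8 (-3.31 to -3.17). Of 30 lysosomal genes 11 rose (7 without cow 7) and 7 fell, with CTSL and CTSH at -6.96 and -2.29 and the acid lipase LIPA at 1.73.

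Of 22 acute phase proteins 6 rose (3 without cow 7), 5 fell (2 without cow 3 and 3 without each of the others) and 11 did not pass. Haptoglobin (HP), which binds free hemoglobin, stood at 15.91, 15.85, 15.98 and 15.98 at 12 h and at 15.91, 15.68, 15.80 and 15.84 at 48 h (change -0.12, SE 0.05, 95% interval -0.25 to 0.02). These levels lie near the top of the scale, where a change may be understated. ITIH4, a protease inhibitor family member named after its values were seen, and FGG, a fibrinogen chain, changed by -0.09 and -0.08 without passing the test, and so did ORM1 (0.16) and CRP (-0.13), the last named after its values were seen. A dimmer probe set of CRP fell by 0.65 (SE 0.09). SAA3, a serum amyloid A, stood at 13.83, 13.29, 13.27 and 15.06 at 12 h and at 12.85, 12.66, 12.15 and 14.34 at 48 h, a fall of 0.86 in these cows (-0.86, SE 0.10) with overlapping values, since cow 8 was the highest at both hours, and the call was lost without the term for the cow. Serum amyloid A genes are near-identical and may share hybridization. LBP, which presents LPS to its receptor, went from 15.31, 15.22, 15.10 and 15.32 to 14.20, 12.88, 13.84 and 13.43 (change -1.65, SE 0.25). Fetuin A (AHSG), whose synthesis is known to go down in inflammation, rose by 0.68 (SE 0.05). Other bright probe sets of it, at 13.7 to 14.7 at 12 h, rose by 0.52 to 0.82. Dimmer ones, at 8.55 and 5.78 at 12 h, fell by 0.61 and 1.21, and the dimmest did not pass. Serum amyloid P (APCS) rose by 1.14 (SE 0.17). Albumin (ALB) did not pass the test in its brightest probe set (0.04, 95% interval -0.14 to 0.21). Dimmer probe sets of ALB rose by 1.32 (SE 0.14) and 0.92 (SE 0.16), and the rest did not pass.

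Of 31 genes of complement and the collectins 15 rose and 2 fell, with 9 rises without cow 3. The mannose-binding lectins MBL2 and MBL1 went from 10.78, 9.71, 10.12 and 9.40 to 13.28, 12.91, 13.10 and 13.07 (change 3.09, SE 0.21) and from 10.56, 9.59, 10.48 and 10.42 to 12.17, 11.55, 12.18 and 11.98 (change 1.71, SE 0.08). C2 and C4BPB rose by 1.71 and 1.23, while C3 and CFB did not pass the test (0.10, 95% interval -0.03 to 0.23, and 0.08, 95% interval -0.02 to 0.19). The falls were of CD55 (-3.12, SE 0.17) and, named after its values were seen, CD46 (-1.25, SE 0.10), which both protect the cell's own surface from complement. Of 21 genes of coagulation and fibrinolysis 9 rose, among them F10, PROC and F13B by 1.36, 1.32 and 1.15, and 1 fell, thrombomodulin (THBD), the endothelial cofactor of protein C activation (-2.81, SE 0.64, call lost without cow 1, 3 or 7, -2.90 to -2.42). Prothrombin (F2) did not pass the test (0.05, 95% interval -0.05 to 0.16).

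Of 23 genes of iron, heme and metal handling 8 rose and 6 fell (3 without cow 8). The metallothioneins MT1A and MT2A, which bind zinc and copper and were named after their values were seen, fell by 1.02 (SE 0.17, call lost without cow 8, -1.02) and 1.40 (SE 0.27, call lost without cow 1, 7 or 8, -1.58 to -1.46) but stood at 13.5 to 14.6 and 12.4 to 13.8 at 48 h. They are near-identical in sequence. The iron transporter SLC11A2 fell by 3.66 (SE 0.22), heme oxygenase HMOX1, named after its values were seen, by 1.67, whereas the heme synthesis enzyme ALAD and the transferrin receptor TFR2 rose by 2.41 and 1.73. Of 26 antioxidant enzymes 6 rose (3 without cow 3, 10 after centring) and 9 fell. GPX1 went from 14.31, 14.15, 14.14 and 14.23 to 13.16, 12.08, 11.45 and 11.78 (change -2.09, SE 0.29), SRXN1 fell by 2.88 and the selenoprotein of plasma GPX3, named after its values were seen, by 1.75 (SE 0.39, call lost without cow 1, -1.84, or cow 8, -1.75). NQO1, the glutathione synthesis subunit GCLM and catalase (CAT) rose by 2.60, 2.54 and 1.24.

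Nuclear receptors and hormone-related genes moved in both directions, with median changes of 0.04 and 0.03, against 0.02 over all genes. The shares that rose were 28.6% and 33.3% (all genes 16.2%), and those that fell 19% and 16.7% (all genes 26.7%). For bright genes the background is higher, as given above. Of 21 hepatocyte transcription factors and nuclear receptors 6 rose and 4 fell, with the thyroid hormone receptor THRA at 2.57 (SE 0.28), the common partner RXRA at 1.53 and the oxysterol receptor NR1H3 at 1.43. FOXA3 fell by 2.06 (SE 0.44, call lost without cow 1, 3 or 7, -2.33 to -1.75). Of 24 genes of the growth hormone, IGF and glucocorticoid axis 8 rose and 4 fell. IGFALS, which holds IGF in plasma, went from 6.53, 5.55, 5.74 and 5.95 to 9.15, 9.72, 9.54 and 9.49 (change 3.53, SE 0.28), and SERPINA6, which carries cortisol, from 7.40, 8.37, 8.36 and 8.48 to 10.61, 11.36, 11.53 and 11.75 (change 3.16, SE 0.06). SGK1, a kinase induced by glucocorticoids, fell by 3.28 (SE 0.19). Of 11 circadian clock genes 2 rose (18.2%) and 3 fell (27.3%), near the background. The rises were of PER2 (3.41, SE 0.56, call lost without cow 3, 3.53) and the output factor HLF (2.65, SE 0.18). The falls were of NFIL3 (-1.36, SE 0.31, call lost without cow 1, -1.42, or cow 3, -1.35), TIMELESS (-1.47, SE 0.22) and, named after its values were seen, the clock kinase CSNK1D (-1.06, SE 0.11). Dimmer probe sets of CSNK1D did not pass the test (-0.22 to 0.07). Since the 2 biopsies lie 12 h apart on the clock, these genes move with both the hour after LPS and the time of day.

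Markers of the cell types of liver and blood gave small counts, apart from those of hepatocytes. Of 13 hepatocyte markers 7 rose and none fell, with the asialoglycoprotein receptor chains ASGR1 and ASGR2 at 1.23 and 1.67, and their summed level on the log2 scale was 18.2 to 18.3 at 12 h and 18.6 at 48 h. Of 15 neutrophil markers 3 fell (20%, against 26.7% of all genes) and none rose, and the median change of the members was 0.03. S100A8 went from 12.43, 13.46, 13.59 and 12.36 to 10.27, 9.19, 8.95 and 8.70 (change -3.68, SE 0.46), S100A12 fell by 3.74 and S100A9 by 4.77. The receptor CXCR1 stood at 3.73, 6.80, 7.02 and 2.56 at 12 h and at 2.51 to 2.58 at 48 h and did not pass the test. The summed neutrophil level was 13.3 to 14.5 at 12 h, 9.89 to 11.2 at 48 h in the paired cows and 10.5 to 12.0 at 48 h in the others, and 9 of the 15 markers lay under 4 in all 12 arrays. The part of these cells in the falls of cytokine and signaling genes was not tested. Of 13 Kupffer cell and macrophage markers 1 rose, CD5L (0.89, SE 0.16, call lost without cow 1, 0.88, or cow 3, 0.93), and 3 fell, led by FCER1G (-1.88, SE 0.06), which stood at 7.62 in cow 2 at 48 h, above all 4 paired cows at 12 h. Of 9 B and plasma cell markers 3 rose, among them the joining chain JCHAIN (1.09, SE 0.12) and BLNK (1.50, SE 0.23, call lost without cow 3, 1.44), and 6 of the 9 lay under 4 in all 12 arrays. None of 18 T and natural killer cell markers and none of 8 red blood cell markers passed the test, and 11 and 7 of them lay under 4 in all 12 arrays. Markers of the endothelium (3 rose, 2 fell of 17), of stellate cells and fibroblasts (3 and 2 of 14) and of cholangiocytes (1 and 2 of 8) gave calls in both directions. In all 4 paired cows the summed level was higher at 48 h for Kupffer cell and macrophage markers (13.6 to 14.3 at 12 h and 14.2 to 14.6 at 48 h), B and plasma cell markers (9.53 to 11.3 and 10.4 to 11.7) and cholangiocyte markers (13.4 to 13.7 and 13.8 to 14.1). It was lower in all 4 for markers of the endothelium (11.0 to 11.6 and 10.8 to 11.2) and of stellate cells and fibroblasts (12.0 to 13.0 and 11.7 to 12.4). The sum is of linear levels, so bright markers carry it, such as CD5L (12.3 to 13.3 at 12 h and 13.5 to 13.9 at 48 h). The median change of the members was 0.18 for Kupffer cells and macrophages, 0.13 for B and plasma cells and -0.17 for cholangiocytes. It was 0.03 for the endothelium and -0.02 for stellate cells and fibroblasts. The part of these cells in the changes above was not tested. Skeletal muscle genes, a list added after the values were seen, varied between biopsies at both hours, and ACTA1, the actin of skeletal muscle, stood at 10.16, 7.61, 10.62 and 6.04 at 12 h and at 6.17, 6.22, 8.65 and 8.68 at 48 h. Their summed level at 48 h was 13.9 in cow 6, where ACTA1 stood at 13.1, and 7.28 to 9.55 in the other arrays of that hour. None of the 10 muscle genes passed the test.

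Several groups of genes differed more between the cows at 12 h than at 48 h. The SD between the 4 cows was larger at 12 h for 58.9% of all genes. Among the 5899 genes with a mean level of at least 5 it was larger for 67.9%. The share was 86.4% for immediate early factors, 81.8% for cytokines and receptors, 88.9% for genes of cholesterol synthesis and 88.2% for oxidative phosphorylation. For acute phase proteins it was 45.5% and for interferon-stimulated genes 50%. Cow 8 was the highest at 12 h for 17 of the 18 cholesterol genes and 63 of the 68 genes of oxidative phosphorylation, against 2749 of all 9155 genes. The chemokine CCL2, which attracts monocytes, stood at 8.43, 10.12, 12.19 and 4.46 at 12 h and at 5.16, 5.07, 3.94 and 3.76 at 48 h. Its mean change of -4.32 did not pass the test (SE 1.35, adjusted p = 0.087), while another probe set of it passed, with a fall from 9.26 to 2.97 (change -6.29, SE 1.27). Cow 8 was low already at 12 h. The prostaglandin synthase PTGS2 stood at 5.14, 8.05, 9.87 and 2.82 at 12 h and at 2.83 to 3.37 at 48 h (change -3.45, SE 1.26), and the neutrophil chemokine CXCL8, named after its values were seen, at 6.40, 8.31, 10.36 and 3.37 at 12 h and at 3.83, 3.39, 3.11 and 5.20 at 48 h (change -3.23, SE 1.65). Neither passed the test. EGR1 stood at 7.55, 9.26, 10.66 and 3.17 at 12 h and at 2.26, 3.39, 2.84 and 2.08 at 48 h, and its call (-5.02, SE 1.21) was lost without cow 1, 3 or 7 (-4.93 to -4.08). In the list of immediate early factors cow 7 was the highest of the 4 cows at 12 h for 17 of 22 genes and cow 8 the lowest for 13, against 2862 and 1646 of all 9155 genes. The median SD between the cows in that list was 0.83 at 12 h and 0.34 at 48 h, and 0.22 and 0.15 over all genes. Over genes with a mean level of at least 5 it was 0.27 and 0.19. For cytokines and receptors these values were 0.45 and 0.21. At 48 h, 6 of the 22 immediate early factors and 9 of the 44 cytokine genes had a mean under 3, against 3 and 5 at 12 h. So near the floor the SD is held down. The interleukin 1 receptor antagonist IL1RN lay at 7.67 or above at 12 h and at 7.07 or below at 48 h without overlap, but with changes so unequal between cows that it did not pass the test (-2.29, SE 0.59, adjusted p = 0.052). It passed without cow 8 (-2.85), as did CCL2 (-5.52).

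**Figure D3:**
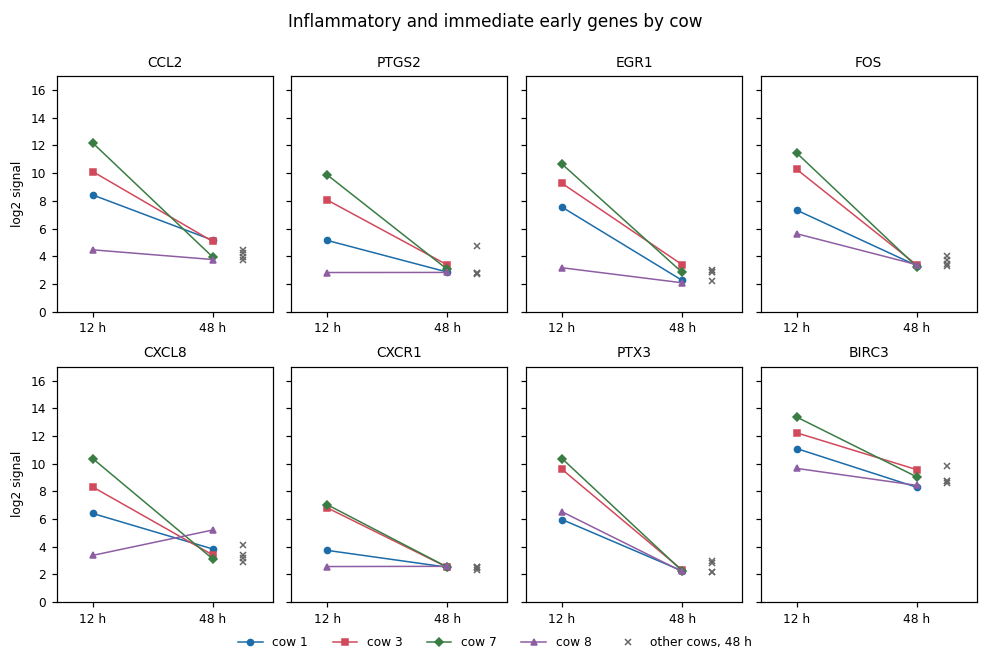
Log2 signal (y axis) at 12 h and 48 h (x axis) of 8 inflammatory and immediate early genes, with 1 line per paired cow and crosses for the 4 other cows at 48 h. At 12 h cow 7 is the highest and cow 8 or cow 1 the lowest in each panel, and at 48 h the paired cows lie close together for most of the genes.

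A gene that did not pass the test was not always a gene without change. Of the 5227 genes not called, 2775 had a 95% interval of the change that lay within 0.5 of 0, but only 599 of those had a mean level of 5 or more, and the interval of 1028 genes reached 1 or more in size. Among the bright genes within 0.5 of 0 were the plasma proteins ALB, F2, C3 and CFB, the apolipoprotein APOE (0.04, 95% interval -0.11 to 0.18), and RPS29, as given above. ALB and C3 stood at 16.0 and 15.7 at 12 h, near the top of the scale, where a change may be understated. Dimmer probe sets of ALB rose, as given above.

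The other 4 cows, which were not biopsied at 12 h, gave a check with no array in common. In them 48 h was compared with 9 h, and 3775 probe sets rose (15.6%) and 4390 fell (18.2%). Centring of the arrays turned this balance to 12924 rises and 4450 falls. Of the 3275 probe sets that rose from 12 h to 48 h, 96.5% were higher at 48 h than at 9 h in the other cows and 79.3% passed the test there, and of the 4245 that fell 95.6% were lower and 74.3% passed. Of all probe sets 63.1% were higher and 36.9% lower in these cows. Without cow 2 the shares in the same direction were 96.6% and 95.3%, and those that passed 72.2% and 64.1%. The shared calls were 68.8% and 71.8% of the calls of the other cows. In the opposite direction 16 and 20 probe sets passed. TNFRSF6B changed by -8.84 and AKR1C3 by 8.35 in the other cows, CYP7A1 by 10.64, KLB by 8.22 and ANKRD1 by -9.59. The brain creatine kinase CKB, named after its values were seen, went the opposite way: it fell by 0.84 in the paired cows (SE 0.17, call lost without cow 1, 3 or 8, -0.93 to -0.89) and rose by 1.63 in the others (SE 0.12). Since 9 h and 12 h are different hours, such differences hold both the cow and the hour.

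The levels of both sets of cows were also compared at 48 h. No probe set differed between the 4 other cows and the 4 paired cows at 48 h (limma, 793 at an unadjusted p below 0.05), and the median absolute difference over all genes was 0.08. Neither did any without cow 2 (1103 at an unadjusted p below 0.05), although single genes of cow 2 differed as given above. No probe set passed a test of whether the change from 9 h to 48 h differed between the 2 sets of cows (1075 at an unadjusted p below 0.05). The number of cows limits what such a test can find.

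**Figure D4:**
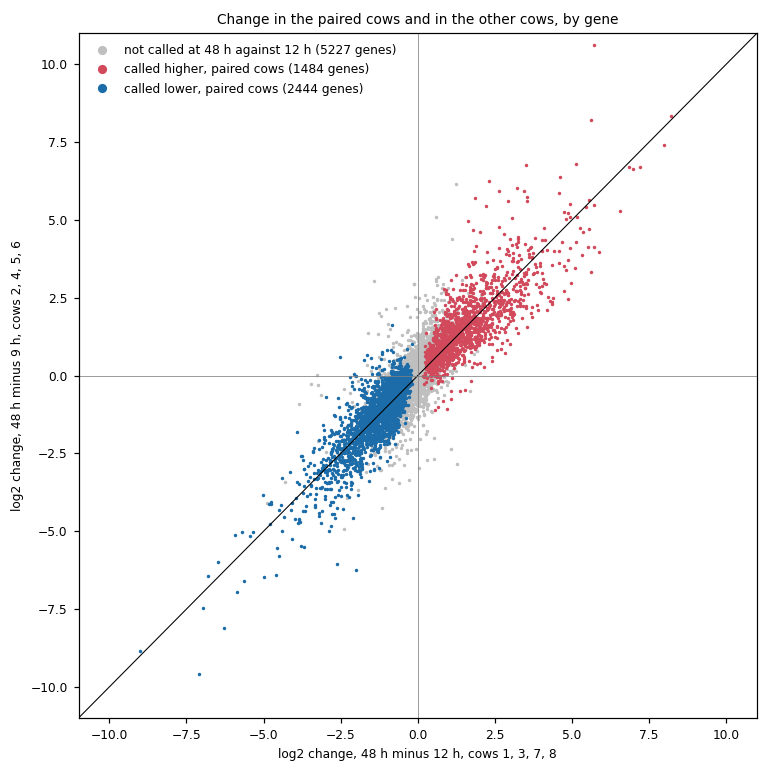
Log2 change from 12 h to 48 h in the paired cows (x axis) against the log2 change from 9 h to 48 h in the other cows (y axis) for 9155 genes, with 1484 genes called higher and 2444 called lower in the paired cows coloured and the line of equal change drawn. Nearly all coloured genes lie on the same side of 0 in both sets of cows, with CYP7A1 at 5.72 and 10.64 far above the line.

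The levels before LPS are given beside those at 48 h. Over the genes that rose the median level was 9.19 at -22 h, 7.80 at 12 h and 9.28 at 48 h, and over those that fell it was 7.91, 9.03 and 7.71. The mean at 48 h lay within 1 of the mean at -22 h for 95.6% of the genes that rose and 96.6% of those that fell, and for 97.2% of all genes. Within the 4 cows 48 probe sets differed between 48 h and -22 h (0.199%), with 21 higher and 27 lower. This count was 0 without any 1 of the 4 cows, 347 without pairing by cow and 1409 after centring, so the list depends on the fit. 1 array at -22 h, of cow 7, stood apart in its spike-in controls, with BioB at 11.1.

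Read as genes, 10 stood higher and 7 lower at 48 h than at -22 h, and those given here were named after their values were seen or are described above. The SAA3 level was 7.77 at -22 h and 13.0 at 48 h (5.23 higher, SE 0.35), and that of A2M, a broad protease inhibitor, 10.1 and 14.3 (4.18 higher, SE 0.20). S100A12 was 3.06 higher, the cytokinesis motor KIF23 2.05, PRLR 1.69 and the feedback inhibitor of growth hormone signaling SOCS2 1.55. The pantetheinase VNN1 was 1.92 lower, the tubulin TUBA4A 1.72 and ODC1, the first enzyme of polyamine synthesis, 1.61. Larger differences that did not pass the test were those of MT1A (5.92, SE 1.15), GPX3 (5.77, SE 0.79) and HP (4.81, SE 1.27), and the SD between the 4 cows at -22 h was 3.03, 2.51 and 3.16 for these genes. Cow 1 was the highest of the 4 cows before LPS in all 3 genes: HP stood at 15.14, 10.80, 7.45 and 10.60 at -22 h, MT1A at 12.81, 6.70, 7.19 and 6.45 and GPX3 at 9.36, 4.21, 4.40 and 4.43. KIF23, PRLR, TUBA4A and ODC1 had also changed from 12 h to 48 h, by 2.30, 5.87, -3.38 and -4.14, and so moved past their level before LPS, while SAA3 and S100A12 had fallen and still stood above it. A2M, SOCS2 and VNN1 did not pass the test from 12 h to 48 h (-0.44, 0.28 and 0.86).

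**Figure D5:**
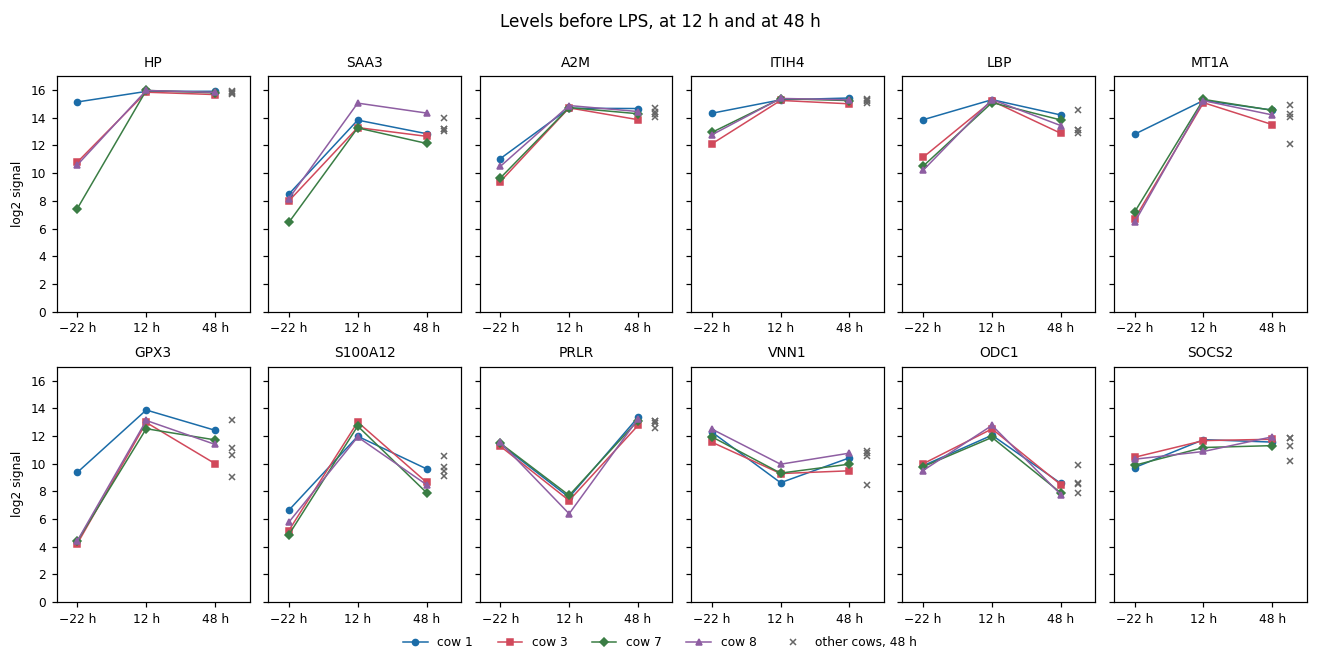
Log2 signal (y axis) at -22 h, 12 h and 48 h (x axis) of 12 genes, with 1 line per paired cow and crosses for the 4 other cows at 48 h. HP stays between 15.7 and 16.0 from 12 h to 48 h, while PRLR rises above and ODC1 falls below the level at -22 h.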

How the data were processed

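Liver biopsies of 8 cows were measured on 36 arrays, 1 cow and hour on each, and grouped by the hour in the labels. The 4 paired cows have the same animal number at both hours. The deposited log2 values, used as given, were made by the authors with GCRMA (background correction, quantile normalization and summary of each probe set). The version is not given in the sources used here. Quantile normalization gives all arrays nearly the same distribution, so a general shift in RNA amount cannot be seen. The number of arrays limits the precision.

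Changes from 12 h to 48 h were fitted with limma 3.58.1 (R 4.3.3) on the 8 arrays of cows 1, 3, 7 and 8 with a term for the cow, over all 24128 probe sets including 112 controls, and called at a Benjamini-Hochberg-adjusted p below 0.05. The study's own test, 1 mean per hour without cow and Bonferroni below 0.01, is among the alternatives. Deviations from the hourly means correlated within a cow at 0.21 to 0.38 and between cows at -0.15 to 0.02, and pairing comes from the animal numbers. The same fit compared 48 h with -22 h in these cows and 48 h with 9 h in cows 2, 4, 5 and 6, which share no array with the main comparison.

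Probe sets were named from the platform annotation with symbols updated through RefSeq: 13318 name 1 gene, 86 several and 10724 are unnamed here. Of 1546 list symbols 1218 matched. Named were the 12 largest falls and rises, per list up to 4 called members with the largest change, its brightest member and the one with the narrowest interval, genes the study names, and cell type markers. Genes outside this rule are marked as named after their values were seen. Members and lists were chosen with earlier results of these data known. Scripts were tested on simulated data. Alternatives were other fits, thresholds, filters and centring, and each cow left out. Raw array files and blood measurements were not used here. Figures were drawn with matplotlib 3.10.9 in Python 3.11.15.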

Additional observations from a re-analysis of the deposited data

Results flagged for a closer look

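For 13 of the 220 genes named, the change of 1 cow lay far from the changes of the other 3. Chance passes the limit used in about 1 of 20 such groups, so 11 genes were expected by chance alone. In cow 7, IL6 changed by -3.93, against 0.00 to 0.16 in the others, HSPA8 by -1.95 (others -0.52 to -0.34), CKB by -1.41 (others -0.71 to -0.60), ZDHHC19 by -4.40 (others -5.84 to -5.70), F10 by 1.82 (others 1.16 to 1.27) and PHGDH by 1.34 (others 2.48 to 2.62). In cow 1, SPP1 changed by -0.98, against -4.48 to -4.09 in the others, BLNK by 0.70 (others 1.71 to 1.84), C2 by 1.18 (others 1.83 to 1.94), CTSH by -2.09 (others -2.37 to -2.35) and HP by 0.0088 (others -0.17 to -0.14). In cow 3, BAX changed by -2.62 (others -2.01 to -1.89), and in cow 8, IL1R1 changed by -1.62 (others -1.97 to -1.94).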

How the results depend on the processing

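The count of 7520 changed probe sets (3275 higher, 4245 lower) was 7793 (3406 and 4387) without the replicate block for the cow, 9917 with a random replicate block and 9966 with a fixed replicate block over all 36 arrays, and 9505 in the fit the study used. It moved furthest with stricter thresholds, to 19 (10 and 9) at a Bonferroni-adjusted p below 0.01, to 3873 (1654 and 2219) at that threshold in the study's fit, and to 4702 (2175 and 2527) with a 2-fold minimum. With 1 cow left out it was 5589 to 6679, with 2487 to 2839 higher and 3045 to 3840 lower. Centring each array on the median of its brighter probe sets raised the median change by 0.14 and the share of rises among the calls from 43.6% to 51.4% (4420 higher, 4175 lower). The 48 probe sets between 48 h and -22 h became 347 without the replicate block, 1409 after centring and 0 to 0 with 1 cow left out. In the other cows the 8165 probe sets between 48 h and 9 h became 17374 after centring (12924 higher), 8473 without the replicate block and 6175 to 6912 with 1 cow left out. At 48 h the count between the sets of cows was 1 after centring and 0 to 1 with 1 cow left out. The cause of these shifts was not tested. The mean of all probe sets of a gene turned HEATR1 to -0.19 and WARS1 to -1.56, ended the calls of AHSG (0.17) and PSMD6 (-0.32), and brought ALB to a call (0.42). Without the replicate block BLNK, CKB, JCHAIN, NFIL3, PPARA and SAA3 lost their call and IL1RN gained one. CCL2, CXCL8, PTGS2 and NFKBIA passed in the fits over all 36 arrays. Dim probe sets limit the result at the low end and the top of the scale at the high end.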

Other observations

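The probe sets that do not name a single gene here hold large changes as well. Of 10836 such probe sets 1323 rose and 1138 fell from 12 h to 48 h, 248 of the calls were of 8-fold or more, and the largest rise was 8.86 and the largest fall -6.17. Of the genes with several probe sets, 37 had calls in opposite directions.

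Of the genes that passed the test in opposite directions in the paired cows (12 h to 48 h) and the other cows (9 h to 48 h), 13 were read in both. Beside CKB and PPARA they include IYD, the iodotyrosine deiodinase, which rose by 1.39 and fell by 0.48, ATXN3, a deubiquitinase, which fell by 1.17 and rose by 0.70, and CPEB4, a regulator of polyadenylation, which rose by 0.67 and fell by 1.00. These genes were named after their values were seen.

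Of 46 genes of the cell cycle and DNA replication 4 rose (8.7%) and 11 fell (23.9%) from 12 h to 48 h. The background is 16.2% and 26.7%, and the falls were 6 or 7 without cow 1, 3 or 8. A mean level under 5 was found for 29 of the 46 genes, so dim probe sets limit these counts.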
